A study of Mus musculus with 5 samples.

Results

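Cytochrome P450 enzymes are described here across the cell types of healthy and obstructed adult mouse kidney, from RNA counts of single nuclei and single cells. Of the 22980 gene symbols in the deposited count tables, 83 had a P450 symbol of the form Cyp, family number, subfamily letter and member number. The 57 of these with at least 20 counts over all 17542 barcodes were kept, and the other 26 held fewer. The threshold fell between Cyp3a44 with 19 counts, left out, and Cyp4f40 with 21 counts, kept. The symbol rule also leaves out Cyp51, Cyp4a12a and Cyp4a12b.

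The study set nucleus libraries against a cell library of whole adult kidney, and it profiled 1 diseased kidney. The libraries are nuclei from a kidney 14 days after UUO (unilateral ureteral obstruction, a fibrosis model) on the 10x platform, and nuclei from healthy kidney on the 10x, DroNc-seq and sNucDrop-seq platforms. The remaining library is healthy kidney cells on the Drop-seq platform, freed by enzymatic digestion and sorted by light scatter; nuclei were freed by lysis of the tissue. The dissociation protocol names a C57BL/6 mouse, and the sources used here state no age, sex or number of animals for the libraries. With 1 library for each condition and platform there is no replicate, so no p-value is given, and every interval below is a 95% interval for counting error only.

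P450 enzymes are heme proteins that insert an oxygen atom into lipids, steroids, vitamins and foreign compounds, with electrons passed on by P450 oxidoreductase (Por) or, in mitochondria, by ferredoxin. In kidney the proximal tubule holds many of them: CYP2J and CYP2C enzymes form epoxides of arachidonic acid, CYP4 enzymes hydroxylate fatty acids at the chain end, CYP27B1 makes active vitamin D and CYP24A1 breaks it down. Several kidney P450 genes are known to differ between male and female mice.

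Of the 57 members, 56 were placed in the GENCODE M21 annotation of GRCm38, on 13 chromosomes and each as protein coding. Cyp2c44 has no entry there; RefSeq gives that symbol as another name of Cyp2c23. In all, 40 members lay in 6 runs of neighbours no more than 500000 bases apart. Cyp2j13, Cyp2j7, Cyp2j11, Cyp2j8, Cyp2j6, Cyp2j9 and Cyp2j5 filled chr4:96027534-96664154, and 7 Cyp4 genes, Cyp4a10, Cyp4a14, Cyp4a31, Cyp4a32 and Cyp4b1 among them, filled chr4:115106323-115647723. Transcripts of neighbours can be alike enough to exchange reads: 15 members shared more than 10% of their 50-base words with another annotated gene and 20 shared none. That share was 43.8% for Cyp4a32, 38.0% for Cyp2a4, 37.0% for Cyp2a5, 29.8% for Cyp4a10, 20.0% for Cyp2b13, 19.0% for Cyp4a31, 16.7% for Cyp2d9 (closest to Cyp2d12) and 10.8% for Cyp2b9, and among members with few counts 54.3% for Cyp2c69, 19.5% for Cyp2c66 and 17.4% for Cyp4f16. Separate counts of these members are uncertain. It was 8.26% for Cyp4b1, 0.127% for Cyp2j13 and 0 for Cyp7b1.

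The stretch that defines the family is the loop around the cysteine that holds the heme iron, which 51 of the 56 annotated members carry as 10 codons of a common pattern. It is shown for the members the results turn on, from the annotated coding sequence in GRCm38, 5′ to 3′ on the coding strand, with the cysteine codon (the eighth codon) in capitals. Cyp4a10, Cyp4a31 and Cyp4a32 have the same 30 bases here, and Cyp2d26 shares its stretch with Cyp2d9.
Cyp2j5: ttctcaatgggaaaaagagctTGTcttgga
Cyp2j11: ttctcaatgggaaagagagctTGCcctggg
Cyp2j13: ttttcaatgggaaagcgagctTGCctcgga
Cyp4a31: ttctcaggaggagccaggaacTGCattggg
Cyp4a14: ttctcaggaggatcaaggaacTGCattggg
Cyp4b1: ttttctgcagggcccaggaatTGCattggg
Cyp2d12: ttttcagcaggccgcagatcaTGCctgggg
Cyp2d26: ttctcagcaggccgcagatcaTGCctgggg
Cyp2e1: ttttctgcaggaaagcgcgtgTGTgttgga
Cyp24a1: tttggcgtcgggaagaggatgTGCatcggg

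Promoter windows of 300 bases around the start site (RefSeq, GRCm38.p6) were found for 41 members, which have 44 entries. Motifs were sought on both strands: AGGTCA (bound by nuclear receptors) was in 27.3% of the 44 windows and in 16.3% of all 32851 windows, and TATAAA (the TATA box) in 34.1% and 13.6%. Neither motif contains the other, and a match describes the letters only. The 4 windows below belong to genes whose proximal tubule levels separated libraries or conditions in the values that follow, with each motif found in capitals on either strand; the Cyp2j13 and Cyp4b1 windows hold neither motif. They run 5′ to 3′ on the gene's strand, at chr4:96664070-96664369 (minus) for Cyp2j5, chr4:96077491-96077790 (minus) for Cyp2j13, chr4:115647672-115647971 (minus) for Cyp4b1 and chr15:82794196-82794495 (minus) for Cyp2d26.
Cyp2j5: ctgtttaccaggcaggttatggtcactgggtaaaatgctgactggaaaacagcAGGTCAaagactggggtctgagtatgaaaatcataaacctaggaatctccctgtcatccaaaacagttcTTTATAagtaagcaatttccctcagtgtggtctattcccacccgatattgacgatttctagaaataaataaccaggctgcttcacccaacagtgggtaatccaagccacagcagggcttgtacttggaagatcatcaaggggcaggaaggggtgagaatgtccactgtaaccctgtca
Cyp2j13: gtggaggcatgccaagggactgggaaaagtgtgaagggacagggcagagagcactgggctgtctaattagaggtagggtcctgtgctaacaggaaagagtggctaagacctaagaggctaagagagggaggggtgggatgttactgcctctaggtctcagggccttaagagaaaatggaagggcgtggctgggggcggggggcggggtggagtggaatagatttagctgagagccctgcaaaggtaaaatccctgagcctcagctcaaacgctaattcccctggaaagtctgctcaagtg
Cyp4b1: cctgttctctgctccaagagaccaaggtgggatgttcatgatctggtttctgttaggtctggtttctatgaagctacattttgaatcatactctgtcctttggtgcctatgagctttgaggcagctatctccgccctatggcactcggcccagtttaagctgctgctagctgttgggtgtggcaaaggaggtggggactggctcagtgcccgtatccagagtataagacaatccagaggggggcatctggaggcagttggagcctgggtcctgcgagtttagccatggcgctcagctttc
Cyp2d26: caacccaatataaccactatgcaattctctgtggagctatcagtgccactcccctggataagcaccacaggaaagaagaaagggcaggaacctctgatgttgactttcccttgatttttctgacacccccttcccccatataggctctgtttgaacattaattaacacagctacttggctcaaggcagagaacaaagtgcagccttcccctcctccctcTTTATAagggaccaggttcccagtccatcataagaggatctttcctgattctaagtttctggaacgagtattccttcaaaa

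The libraries held 2084 to 6147 barcodes and 2947137 to 7411036 counts, with a median of 1055 to 1630 counts for each barcode. Cell types are the authors' own labels, and levels (CPM) are the counts of a gene for each 1000000 counts summed over all barcodes of a label in a library. The proximal tubule (PT) class joined the labels S1, S2 and S3, which name its successive segments, and in the UUO kidney the dedifferentiated and proliferating PT labels. It held 2352 UUO barcodes, 705, 1605 and 1821 in healthy 10x, DroNc-seq and sNucDrop-seq, and 3022 in Drop-seq. The S3 label made up 20.1% of PT barcodes in UUO, 35.9% in healthy 10x, 18.3% in DroNc-seq, 48.5% in sNucDrop-seq and 63.8% in Drop-seq. The summed level of 12 PT markers in the PT class was 2640 CPM in UUO, against 16948, 14882 and 14982 CPM in healthy 10x, DroNc-seq and sNucDrop-seq and 9642 CPM in Drop-seq. In summed counts, fewer nuclei expressing a gene and less RNA of it in each nucleus cannot be told apart. Sex-linked transcripts separated the libraries: Xist was at 0.405 CPM in UUO, 1321 in healthy 10x, 1309 in DroNc-seq and 0 in sNucDrop-seq and Drop-seq. The 4 Y-linked genes summed to 619 CPM in UUO, 3.73 in healthy 10x, 8.70 in DroNc-seq, 446 in sNucDrop-seq and 145 in Drop-seq. UUO and healthy 10x shared 23 barcode sequences and sNucDrop-seq and Drop-seq shared 1. A member with no count in a library is called not listed there; of the 57 members, 51 were listed in UUO, 37 in healthy 10x, 45 in DroNc-seq, 54 in sNucDrop-seq and 51 in Drop-seq.

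Summed P450 RNA was higher in the proximal tubule than outside it in each library. All members together came to 1169 CPM (1134 to 1205) in UUO PT, and to 2849, 3488 and 9144 CPM in PT nuclei of healthy 10x, DroNc-seq and sNucDrop-seq and 6781 CPM in Drop-seq PT cells. Outside PT the sums were 643, 796, 1543, 4267 and 2134 CPM in the same order of libraries. PT had the highest level of any cell type for 7 of 30 members in UUO, 15 of 31 in healthy 10x, 14 of 41 in DroNc-seq, 13 of 38 in sNucDrop-seq and 10 of 33 in Drop-seq, counting members with at least 20 counts in the library. The same was true of 4.87%, 11.3%, 6.84%, 6.47% and 8.08% of all genes in these libraries.

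RNA of PT genes was also counted in other cell types. The level outside PT was a median 14.2% of that inside PT for the PT markers in UUO, 10.1% in healthy 10x, 32.6% in DroNc-seq, 44.1% in sNucDrop-seq and 28.0% in Drop-seq. Cyp2j5, an arachidonic acid epoxygenase gene (chr4:96628773-96664154, minus strand), stood at 9.46%, 7.49%, 30.5%, 40.9% and 24.7% in the same order, inside the range of the PT markers in each of these libraries. Over the P450 members with at least 20 counts in PT the median was 66.5%, 28.2%, 51.8%, 46.3% and 40.3%. Free RNA from PT and expression in the other cell types cannot be told apart for a member whose level there lies under its PT level.

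Cyp2j5 was the member with its highest level in PT, clear of the next cell type by its counting interval, in all 5 libraries. Its PT level was 302 CPM (285 to 321) in UUO, against 539 CPM (498 to 582) in healthy 10x, 1659 CPM (1616 to 1704) in DroNc-seq and 2699 CPM (2639 to 2760) in sNucDrop-seq, with 1032 CPM (1006 to 1058) in Drop-seq cells. Cyp2j13, also an epoxygenase gene, was clear in PT in UUO and sNucDrop-seq. Cyp4b1, a CYP4 fatty acid and xenobiotic hydroxylase gene, was clear in sNucDrop-seq and Drop-seq, and Cyp2d12 in healthy 10x and sNucDrop-seq. Cyp4a10, Cyp4a14 and Cyp4a31, which encode fatty acid omega-hydroxylases, were clear in healthy 10x. Cyp2e1, whose enzyme oxidises ethanol and small solvents, was clear in Drop-seq.

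The other members were highest outside PT: 23 in UUO, 16 in healthy 10x, 27 in DroNc-seq, 25 in sNucDrop-seq and 23 in Drop-seq. In the same order 3, 3, 4, 1 and 1 of these were clear of the next cell type. Several were highest in intercalated cells (IC), the acid-secreting and base-secreting cells of the collecting duct. Cyp3a13, a member of the drug-metabolising CYP3A subfamily, was at 290 CPM (228 to 362) in IC of UUO, and at 69.5 CPM (38.0 to 117), 42.1 and 45.1 CPM in IC of healthy 10x, DroNc-seq and sNucDrop-seq. Its PT levels were 4.68 CPM in UUO and 1.68, 2.42 and 0.695 CPM in those healthy nuclei. Cyp2s1 was at 56.4 CPM in IC of UUO and at 94.4, 60.5 and 150 CPM in IC of the same healthy libraries, against 6.33, 2.53, 8.75 and 5.21 CPM in their PT. Cyp39a1, an oxysterol 7-alpha-hydroxylase gene, was at 71.4 CPM in UUO IC and 64.6, 44.7 and 60.1 CPM in healthy IC, against 12.1, 11.8, 9.36 and 5.91 CPM in PT. By counting interval the IC level was clear of the next cell type for Cyp3a13 in UUO and healthy 10x and for Cyp2s1 in sNucDrop-seq; the IC interval overlapped that of another cell type for Cyp3a13 in DroNc-seq, for Cyp2s1 in UUO, healthy 10x and DroNc-seq, and for Cyp39a1 in all 4 nucleus libraries. For these 3 genes the order of IC and PT ran opposite to that of the PT markers in all 4 nucleus libraries. Cyp3a13 had 14 counts in all of sNucDrop-seq, under the 20 needed for a place. In Drop-seq cells Cyp3a13 was highest in macrophages (53.9 CPM, 2 counts), with 27.7 CPM in IC and 17.1 CPM in PT. Cyp39a1 was highest there in principal cells (42.7 CPM, 3 counts), both with overlapping intervals, and Cyp2s1 had 12 counts, under 20.

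Other members were highest in vascular, glomerular or stromal labels. Cyp26b1, which breaks down retinoic acid, was at 52.5 CPM in DroNc-seq endothelium and 77.3 CPM in sNucDrop-seq endothelium, against 1 count (3.94 CPM) in UUO endothelium. Cyp1b1 was highest in the cells labelled MC, at 68.8 CPM in DroNc-seq and 80.6 CPM in sNucDrop-seq, and in UUO it was highest in fibroblasts at 32.9 CPM. Cyp27a1, the mitochondrial sterol 27-hydroxylase gene, was highest in podocytes of UUO (81.5 CPM), healthy 10x (187 CPM) and sNucDrop-seq (209 CPM), and in DroNc-seq macrophages at 307 CPM (206 to 441). Its highest level was clear of the next cell type in healthy 10x and DroNc-seq and overlapped another in UUO and sNucDrop-seq. Intervals also overlapped for Cyp26b1 in DroNc-seq and sNucDrop-seq (9 and 12 counts). The same held for Cyp1b1 in DroNc-seq, sNucDrop-seq and UUO (18, 13 and 13 counts). Cyp20a1, a P450 with no agreed substrate, reached 164 CPM in MC cells of DroNc-seq against 20.2 CPM in its PT. It was highest in another cell type elsewhere, with overlapping intervals. These were endothelium in healthy 10x (92.4 CPM, 5 counts), sNucDrop-seq (122 CPM, 19 counts) and Drop-seq (62.5 CPM, 2 counts), and macrophages in UUO (79.6 CPM, 5 counts).

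**Figure D1:**
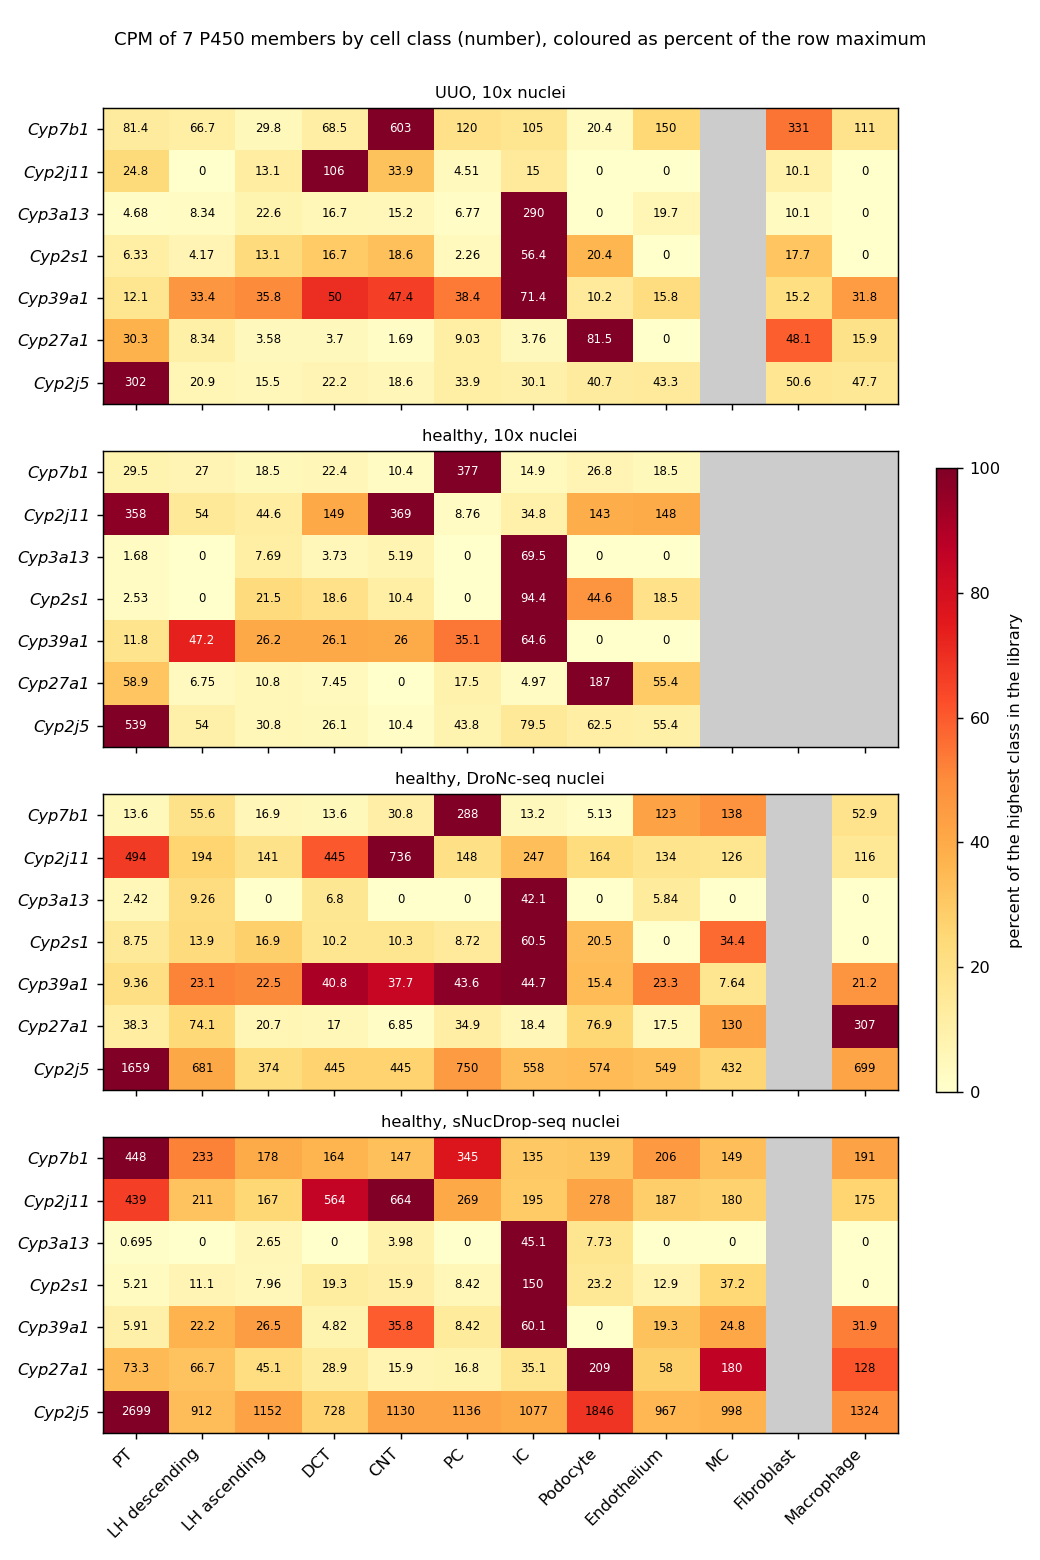
Levels of 7 P450 genes (rows, within each library's panel) across cell types (columns) in the UUO library and the 3 healthy nucleus libraries; numbers are CPM, colour is percent of the row's highest level, and grey marks a cell type with under 20 barcodes or absent. Cyp2j5 is darkest in PT in each panel, while Cyp3a13, Cyp2s1 and Cyp39a1 are darkest in IC.

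Cyp7b1, the oxysterol 7-alpha-hydroxylase gene at chr3:18071950-18243338 (minus strand), had its highest level in other cell types in UUO than in healthy nuclei. In healthy kidney its highest level was in principal cells of the collecting duct at 377 CPM (273 to 508) in 10x and 288 CPM (198 to 404) in DroNc-seq, and in PT at 448 CPM (423 to 473) in sNucDrop-seq, where principal cells were at 345 CPM (248 to 468). In the UUO kidney the connecting tubule led with 603 CPM (542 to 669), then fibroblasts with 331 CPM (277 to 393), principal cells with 120 CPM (89.6 to 156) and PT with 81.4 CPM (72.4 to 91.2). The connecting tubule of healthy 10x held 2 counts (10.4 CPM) of Cyp7b1, that of DroNc-seq 30.8 CPM and that of sNucDrop-seq 147 CPM. Connecting tubule and principal cells thus stood in opposite order in UUO and in the 3 healthy nucleus libraries. Cyp2j11 was also high in distal cells: in the connecting tubule it was at 33.9 CPM in UUO and 369, 736 and 664 CPM in healthy 10x, DroNc-seq and sNucDrop-seq, and in the distal convoluted tubule at 106 CPM and 149, 445 and 564 CPM.

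Along the proximal tubule some members differed between the early segments (S1-S2) and the last (S3). A member is called higher or lower when its level differs at least 2-fold between sums that together hold at least 20 counts. In sNucDrop-seq, 7 of 31 measured members were higher in S3 than in S1-S2, where 4.48% of all genes were, and 3 were lower (4.01% of all genes). In healthy 10x 3 of 24 were higher (6.14% of all genes) and 10 lower (9.59%), in DroNc-seq 3 of 31 higher (7.31%) and 6 lower (5.20%), and in Drop-seq 8 of 30 higher (3.49%) and 1 lower (3.14%). The Drop-seq split was 7 higher and 3 lower with TMM or median of ratios scaling, 7 and 5 with totals without mitochondrial and ribosomal protein genes, and 6 and 3 with the mean over barcodes. With that mean the split was 5 higher and 7 lower in healthy 10x and 4 higher and 3 lower in DroNc-seq. In UUO 2 of 20 were higher (3.69%) and 2 lower (4.92%), neither of the lower ones with an interval clear of 0. Members neither higher nor lower were 21 in sNucDrop-seq, 11 in healthy 10x, 22 in DroNc-seq, 21 in Drop-seq and 16 in UUO.

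Cyp7b1 was higher in S3 in 4 of the 5 libraries. It was at 274 CPM in UUO S3, against 27.3 CPM in UUO S1 and S2, a log2 ratio of 3.32 (2.92 to 3.74). In sNucDrop-seq it was at 684 CPM in S3 and 158 CPM in S1-S2 (2.12, 1.90 to 2.34), in healthy 10x it had 26 counts in S3 and 9 in S1-S2 (1.77, 0.63 to 3.05), and in Drop-seq at 33.0 and 7.92 CPM (2.06, 1.31 to 2.91), while the DroNc-seq log2 ratio was 0.20. Cyp2b9 was higher in S3 by log2 1.49 in sNucDrop-seq, 2.32 in healthy 10x and 2.33 in DroNc-seq. Cyp2a4, a steroid hydroxylase gene, was higher in S3 by 1.06 in sNucDrop-seq, 1.82 in healthy 10x and 1.51 in Drop-seq. Cyp2e1 was at 417 CPM in S3 and 190 CPM in S1-S2 in sNucDrop-seq (1.13) and at 1947 and 878 CPM in Drop-seq (1.15), and was higher by 1.10 in DroNc-seq, whereas healthy 10x gave -0.25.

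Other members stood higher in S1-S2. Cyp24a1, the vitamin D 24-hydroxylase gene, had 0 counts in healthy 10x S3 and 29 in S1-S2. With the S3 sum set at a floor of 3 counts Cyp24a1 was 8.21-fold lower there, with an upper log2 limit of -2.65. Its log2 ratio of S3 over S1-S2 was -1.51 (-2.08 to -0.99) in DroNc-seq and -1.58 (-2.05 to -1.12) in Drop-seq, and -0.92 in sNucDrop-seq and -0.03 in UUO did not reach the 2-fold call. Cyp2d26 was lower in S3 by -2.15 in sNucDrop-seq and by -1.26 in DroNc-seq (84.3 against 202 CPM). Its -0.72 (-1.69 to 0.20) in healthy 10x and -0.96 in Drop-seq did not reach 2-fold. Cyp2d12 was lower in healthy 10x (-2.41) and DroNc-seq (-1.14), and its -0.64 in sNucDrop-seq and -0.93 in Drop-seq did not reach 2-fold. Cyp4a14 was at 55.0 CPM in S3 and 413 CPM in S1-S2 of healthy 10x (-2.91) and lower by -1.07 in DroNc-seq. Cyp4a10 and Cyp4b1 differed in direction between platforms: S3 over S1-S2 was -1.26 for Cyp4a10 in healthy 10x against 1.17 in sNucDrop-seq, and -2.15 for Cyp4b1 in healthy 10x against 0.66 in sNucDrop-seq.

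**Figure D2:**
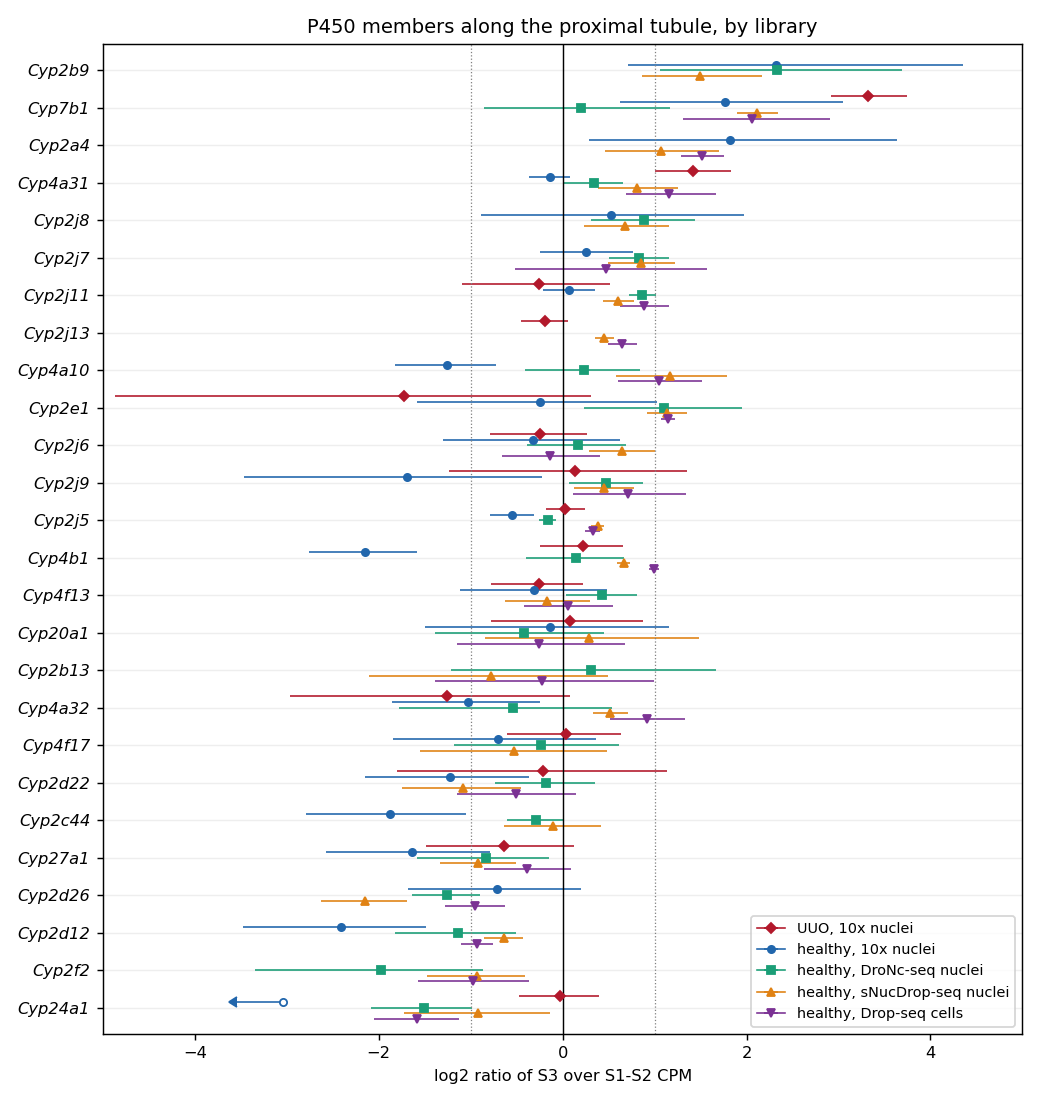
Log2 ratio of the S3 level over the S1-S2 level (horizontal axis) for the 26 members measured in at least 3 libraries, 1 point for each library with its 95% counting interval; positive means higher in S3. Cyp7b1 lies above 1.5 in 4 of the 5 libraries, and Cyp24a1 and Cyp27a1 lie below 0 in each library drawn.

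Healthy PT levels of several members differed widely between libraries. Among 33 members listed in all 4, with at least 20 counts over their PT sums, 6 were at least 2-fold higher in both sNucDrop-seq and Drop-seq PT than in both healthy 10x and DroNc-seq PT: Cyp2a4, Cyp2d12, Cyp2d9, Cyp2e1, Cyp2j13 and Cyp4b1. This held for 2.00% of all genes. Cyp4a14 alone was at least 2-fold lower in the same sense (1.85% of all genes), and the other 26 were neither. With S3 barcodes alone 5 members were higher and 1 lower, and with S1-S2 barcodes alone 6 were higher and 3 lower. The 2.00% and 1.85% of all genes refer to all PT barcodes, and no share is given for single segments. The division by library pair was drawn after the values were seen.

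Cyp2j13 held 3269 counts (1136 CPM) in sNucDrop-seq PT and 1745 counts (296 CPM) in Drop-seq PT, against 10 counts (8.42 CPM) in healthy 10x and 13 counts (3.92 CPM) in DroNc-seq. The log2 ratio of sNucDrop-seq was 7.08 (6.20 to 8.14) over healthy 10x and 8.18 (7.40 to 9.09) over DroNc-seq. Cyp4b1 was at 2375 CPM in sNucDrop-seq and 2606 CPM in Drop-seq, against 163 CPM in healthy 10x and 46.2 CPM in DroNc-seq, and Cyp2e1 at 315 and 1581 CPM, against 20.2 and 15.4 CPM. Cyp4a14 ran the other way, with 11 counts (3.82 CPM) in sNucDrop-seq and 11 counts (1.87 CPM) in Drop-seq, against 295 counts (248 CPM) in healthy 10x and 139 counts (42.0 CPM) in DroNc-seq. The libraries rich in Cyp2j13 carried Y-linked RNA and no Xist, and those rich in Cyp4a14 carried Xist. Outside the 2-fold division, Cyp4a32 was at 337 CPM in sNucDrop-seq and 50.9 CPM in Drop-seq against 57.3 CPM in healthy 10x and 13.9 CPM in DroNc-seq, and Cyp7b1 at 448 and 24.4 CPM against 29.5 and 13.6 CPM. Sex of the animal, platform and library cannot be told apart with 1 library each.

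**Figure D3:**
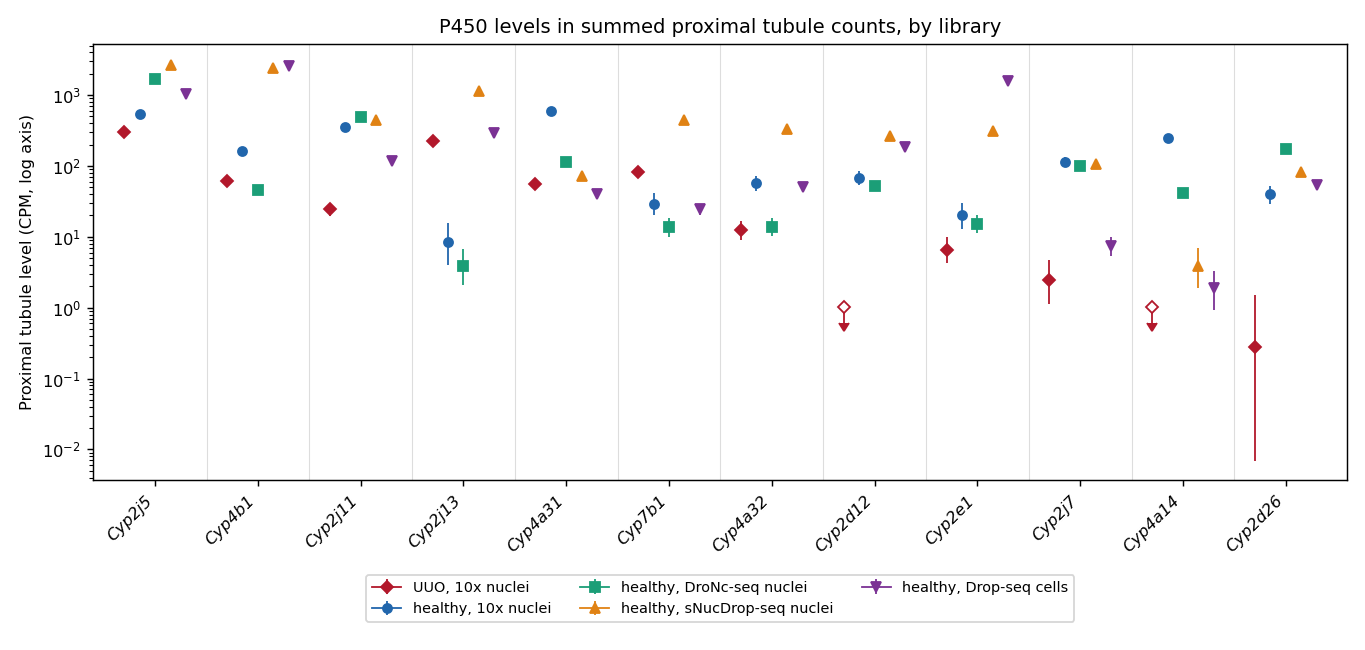
PT levels (CPM, log axis) of the 12 members with the highest mean level over healthy PT nuclei in the 5 libraries; bars on points are 95% counting intervals, and an open symbol with an arrow marks 0 counts, drawn at the upper limit. Cyp2j13 lies at 1136 CPM in sNucDrop-seq, 8.42 CPM in healthy 10x and 3.92 CPM in DroNc-seq, and Cyp2d12 and Cyp4a14 are open symbols in UUO.

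Between platforms, sNucDrop-seq PT was at least 2-fold above healthy 10x PT in 15 of 30 measured members (20.2% of all genes) and below it in 5 (13.5%). It was above DroNc-seq PT in 13 of 37 (9.03%) and below in 6 (4.29%). DroNc-seq PT was above healthy 10x PT in 8 of 30 (15.8%) and below in 10 (14.7%). DroNc-seq and healthy 10x differed in Cyp24a1, with a log2 ratio of 1.89 (1.33 to 2.49) for DroNc-seq over healthy 10x, and in Cyp4a31, with -2.39 (-2.58 to -2.21).

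The comparison of Drop-seq PT cells with sNucDrop-seq PT nuclei sets cytoplasmic plus nuclear RNA against nuclear RNA. Of 37 measured members 17 were lower in cells, where 48.7% of all genes were, and 8 were higher, where 17.9% were. The median log2 ratio was -0.95 over members and -0.93 over all genes. TMM and median of ratios scaling raised every ratio by 0.92 and 0.93, and either gave 11 lower and 11 higher. Cyp2e1 (2.33, 2.23 to 2.43), Cyp2a4 (2.32), Cyp2a5 (2.56), Cyp3a13 (4.62) and Cyp2c70 (1.49) were higher in cells. Cyp7b1 (-4.20, -4.45 to -3.95), Cyp2j8 (-4.53), Cyp2b9 (-4.48) and Cyp2j7 (-3.83) were lower in cells by either scaling as well. Cyp4b1 differed little before scaling (0.13). The S3 label, 63.8% of PT barcodes in Drop-seq and 48.5% in sNucDrop-seq, moved with this comparison, and its part in it was not tested.

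In the obstructed kidney most of the measured CYP1 to CYP3 genes outside the list of epoxygenases were lower in PT than in healthy PT nuclei. UUO PT was compared with each healthy nucleus library in turn, and the 3 ratios share the same UUO sum. Against healthy 10x, made on the same platform, 16 of 28 measured members fell at least 2-fold, where 20.8% of all genes did, and 5 rose (14.6% of all genes), 3 of these with an interval clear of 0. Against DroNc-seq 19 of 36 fell (29.8%), 18 with an interval clear of 0, and 4 rose (19.8%). Against sNucDrop-seq 23 of 34 fell (33.7%) and 5 rose (19.9%). The median log2 ratio over members was -1.51, -1.12 and -2.96 in the same order, against -0.10, -0.25 and -0.34 over all genes measured. With S3 barcodes alone on both sides, 7 of 17 measured members fell and 3 rose against healthy 10x, with a median of -0.32, and 11 of 21 fell against DroNc-seq, with a median of -2.23. No share of all genes is given for S3 barcodes alone. Members with no UUO count were counted among those that fell, whereas members with no count in a healthy library were left out. With both left out, 13 of 25 fell (20.7% of all genes), 17 of 34 (29.7%) and 21 of 32 (33.5%), and 5 (14.6%), 4 (19.8%) and 5 (20.0%) rose. With both kept, 8 of 31 rose against healthy 10x; Cyp4v3 and Cyp27b1, with 31 and 26 UUO PT counts and no count in healthy 10x PT, were among the members left out there.

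Other features of the libraries moved with these ratios, and their part in them was not tested. PT markers fell in UUO PT in 10 of 12 cases against each healthy library, with median log2 ratios of -4.36, -4.20 and -3.93. The sum of 6 injured-tubule markers was 3879 CPM in UUO PT, against 110, 133 and 70.5 CPM in healthy 10x, DroNc-seq and sNucDrop-seq. UUO carried Y-linked RNA like sNucDrop-seq and unlike healthy 10x and DroNc-seq. Markers of the thick ascending limb, a later segment, summed to 46.5 CPM in UUO PT, against 1916, 1653 and 1362 CPM in the same healthy libraries, and 4 hepatocyte markers to 3.30 CPM, against 53.9, 58.6 and 59.8 CPM, of which Ttr supplied 48.0, 55.2 and 50.0 CPM.

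The group of CYP1 to CYP3 genes outside the list of epoxygenases was mostly lower in UUO PT. It holds many genes whose enzymes act on drugs and steroids. It also holds CYP2J and CYP2C genes not listed as epoxygenases, such as Cyp2j7, Cyp2j8, Cyp2c66 and Cyp2c70. Of the group's measured genes, 9 of 10 fell and 1 rose against healthy 10x. Against DroNc-seq 11 of 13 fell, and against sNucDrop-seq 14 of 15 fell. The medians were -3.48, -2.58 and -4.77. In the same order 20.8%, 29.8% and 33.7% of all genes fell and 14.6%, 19.8% and 19.9% rose. Cyp2d12 (chr15:82555072-82560403, plus strand) had 0 counts in UUO PT, an upper limit of 1.01 CPM, against 80, 173 and 759 counts in healthy 10x, DroNc-seq and sNucDrop-seq. With the UUO PT sum set at a floor of 3 counts it was 81.6-fold, 63.3-fold and 320-fold lower. The upper limits of the log2 ratios were -6.02, -5.67 and -8.02. Cyp2d26 had 1 count in UUO PT, against 47, 567 and 236 counts in those libraries, log2 ratios of -7.17 (-12.50 to -4.62), -9.28 (-14.59 to -6.80) and -8.22 (-13.53 to -5.73). No UUO PT level of either gene overlapped a healthy one. Symbol sets differed between libraries, with 25 pairs of names for the same gene; Cyp2d12, Cyp4a14 and Cyp2a4 each had a row in the UUO table, at 0, and whether reads of them were counted under another name was not tested.

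Other members of this group were also lower. Cyp2e1 (chr7:140763739-140774987, plus strand) was at 6.60 CPM (4.23 to 9.82) in UUO PT, against 20.2 CPM (12.9 to 30.1) in healthy 10x, 15.4 CPM (11.5 to 20.2) in DroNc-seq and 315 CPM (295 to 336) in sNucDrop-seq, log2 ratios of -1.61, -1.22 and -5.58. Cyp2d22 fell by 2.61, 2.58 and 1.97 on the log2 scale and Cyp2b9, at 1 count in UUO PT, gave -6.01, -4.78 and -7.24. Cyp2d9 fell by 2.51 and 4.77 against healthy 10x and sNucDrop-seq, and its -1.23 against DroNc-seq had an interval of -2.77 to 0.15. Cyp2a4 had 0 counts in UUO PT. At the floor it was 20.4-fold lower than in healthy 10x and 48.0-fold lower than in sNucDrop-seq, with upper log2 limits of -3.92 and -5.26. Cyp2f2, known for naphthalene activation in the lung, fell by 2.46 and 3.25 against DroNc-seq and sNucDrop-seq. Cyp2b13 fell by 1.66 and 1.92 against the same libraries. The member that rose against healthy 10x was Cyp2s1, on 23 UUO and 3 healthy counts, with an interval from -0.40 to 3.70.

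The arachidonic acid epoxygenase genes split by gene and by library. Against healthy 10x, DroNc-seq and sNucDrop-seq 2 of 5, 5 of 7 and 4 of 5 fell, and 1, 1 and 0 rose. The shares of all genes were 20.8%, 29.8% and 33.7% for a fall and 14.6%, 19.8% and 19.9% for a rise. Cyp2j11 was at 24.8 CPM (19.9 to 30.4) in UUO PT, against 358 CPM (325 to 394), 494 CPM (471 to 519) and 439 CPM (415 to 464), log2 ratios of -3.85, -4.32 and -4.15. The UUO interval lay under all 3 healthy intervals. Cyp2j9 (-1.15, -3.00 and -3.73) also fell. Cyp2j7 (-5.52, -5.33 and -5.42) and Cyp2j8 (-2.24, -3.27 and -4.14), neighbours in the Cyp2j run that are counted with the CYP1 to CYP3 genes above, fell as well. Cyp2j5 fell by 2.46 and 3.16 against DroNc-seq and sNucDrop-seq, and its -0.83 (-0.98 to -0.69) against healthy 10x did not reach 2-fold. Cyp2j6 gave 0.67, 0.34 and -0.86 and was not called.

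Cyp2j13 (chr4:96027534-96077546, minus strand) rose against healthy 10x and DroNc-seq, where most of its neighbours in the Cyp2j run fell. Against sNucDrop-seq it fell, as most of them did. It held 824 counts in UUO PT, 227 CPM (211 to 243), against 8.42 CPM (4.04 to 15.5) in healthy 10x, 3.92 CPM (2.09 to 6.71) in DroNc-seq and 1136 CPM (1097 to 1176) in sNucDrop-seq. It rose by log2 4.75 (3.86 to 5.82) against healthy 10x and 5.85 (5.07 to 6.77) against DroNc-seq, and fell against sNucDrop-seq, with -2.33 (-2.44 to -2.21). The libraries it rose against carried Xist, and the library it fell against carried Y-linked RNA, as UUO did. Cyp7b1 did the same, rising by 1.47 (0.96 to 2.02) and 2.58 (2.13 to 3.07) against healthy 10x and DroNc-seq and falling by 2.46 against sNucDrop-seq. For both genes obstruction and the sex of the animal cannot be told apart against healthy 10x and DroNc-seq.

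The gene listed as Cyp2c44 in the healthy nucleus libraries is listed as Cyp2c23 in UUO and Drop-seq. It is a CYP2C epoxygenase gene known from mouse kidney. Read as 1 gene, it had 21 counts in UUO PT, against 80, 531 and 126 in healthy 10x, DroNc-seq and sNucDrop-seq, log2 ratios of -3.54 (-4.31 to -2.84), -4.79 (-5.50 to -4.17) and -2.92 (-3.66 to -2.25). This joined value is outside the counts above. In Drop-seq PT cells against sNucDrop-seq PT nuclei it had 203 and 126 counts (-0.35, -0.67 to -0.01).

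The CYP4 genes were mixed. Against healthy 10x, DroNc-seq and sNucDrop-seq, 5 of 8, 3 of 9 and 3 of 8 fell and 1, 1 and 2 rose, with medians of -1.81, -0.17 and -0.09. Of all genes, 20.8%, 29.8% and 33.7% fell and 14.6%, 19.8% and 19.9% rose in the same order. The CYP4 shares against DroNc-seq and sNucDrop-seq lay near these. The fatty acid omega-hydroxylase genes Cyp4a14 and Cyp4a10, known targets of the fatty acid receptor PPAR-alpha, were near 0 in UUO PT. Cyp4a14 (chr4:115486200-115496142, minus strand) had 0 UUO counts, against 295 in healthy 10x and 139 in DroNc-seq. At a floor of 3 counts it was 301-fold and 50.8-fold lower, with upper log2 limits of -7.93 and -5.35. In sNucDrop-seq PT, which carries Y-linked RNA as UUO does, it had 11 counts (3.82 CPM), too few for a ratio. For Cyp4a14, too, obstruction and the sex of the animal cannot be told apart against healthy 10x and DroNc-seq. Cyp4a10 had 4 UUO counts, against 149, 109 and 124, log2 ratios of -6.83, -4.90 and -5.29.

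Cyp4a31, Cyp4a32 and Cyp4b1 were measurable in UUO PT. Cyp4a31 was at 56.1 CPM (48.7 to 64.4) in UUO PT, against 594 CPM (551 to 640) in healthy 10x, 113 CPM (102 to 125) in DroNc-seq and 72.3 CPM (62.8 to 82.8) in sNucDrop-seq, log2 ratios of -3.41, -1.01 and -0.37. Cyp4a32 was at 12.4 CPM in UUO PT, against 57.3, 13.9 and 337 CPM, log2 ratios of -2.21, -0.17 and -4.77. Cyp4b1 (chr4:115624725-115647723, minus strand) was at 61.3 CPM (53.6 to 69.9) in UUO PT, against 163 CPM (140 to 187), 46.2 CPM (39.2 to 54.1) and 2375 CPM (2319 to 2432), log2 ratios of -1.41, 0.41 and -5.27. The UUO level of Cyp4b1 therefore lay between the healthy levels. With S3 barcodes alone the Cyp4b1 ratio over healthy 10x was 0.40. Of the CYP4F genes, Cyp4f13 gave 0.35, -0.33 and 0.18, and Cyp4f17 0.40, 0.98 and 1.59, a rise against sNucDrop-seq. Cyp4v3, whose human counterpart omega-hydroxylates fatty acids in the retina, rose by 1.82 (0.67 to 3.15) against DroNc-seq and 3.62 (1.64 to 6.73) against sNucDrop-seq, on 31 UUO counts against 8 and 2.

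Vitamin D and sterol genes were few. Their counts are set beside the 20.8%, 29.8% and 33.7% of all genes that fell and the 14.6%, 19.8% and 19.9% that rose. Among vitamin D genes 0 of 2, 0 of 4 and 1 of 3 fell and 1 rose in each comparison, and among sterol genes 0 of 3, 0 of 3 and 2 of 3 fell and 1 rose in each; Cyp27a1 is in both groups. Cyp24a1 (chr2:170482708-170497145, minus strand) was at 78.7 CPM (69.8 to 88.3) in UUO PT, against 24.4 CPM (16.4 to 35.1) in healthy 10x, 90.3 CPM (80.3 to 101) in DroNc-seq and 21.2 CPM (16.2 to 27.2) in sNucDrop-seq. It rose by log2 1.69 and 1.89 against healthy 10x and sNucDrop-seq, and the UUO and DroNc-seq intervals overlapped (-0.20, -0.44 to 0.04). Cyp27b1, the vitamin D activating enzyme gene, had 26 UUO counts against 6 in DroNc-seq, a rise of 1.98 (0.67 to 3.55), and gave -0.10 against sNucDrop-seq. Cyp27a1 gave -0.96, -0.34 and -1.28, Cyp39a1 0.04, 0.37 and 1.03, and Cyp20a1 0.32, 0.26 and 1.22. Cyp2r1, a vitamin D 25-hydroxylase gene, gave -0.77 against DroNc-seq.

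**Figure D4:**
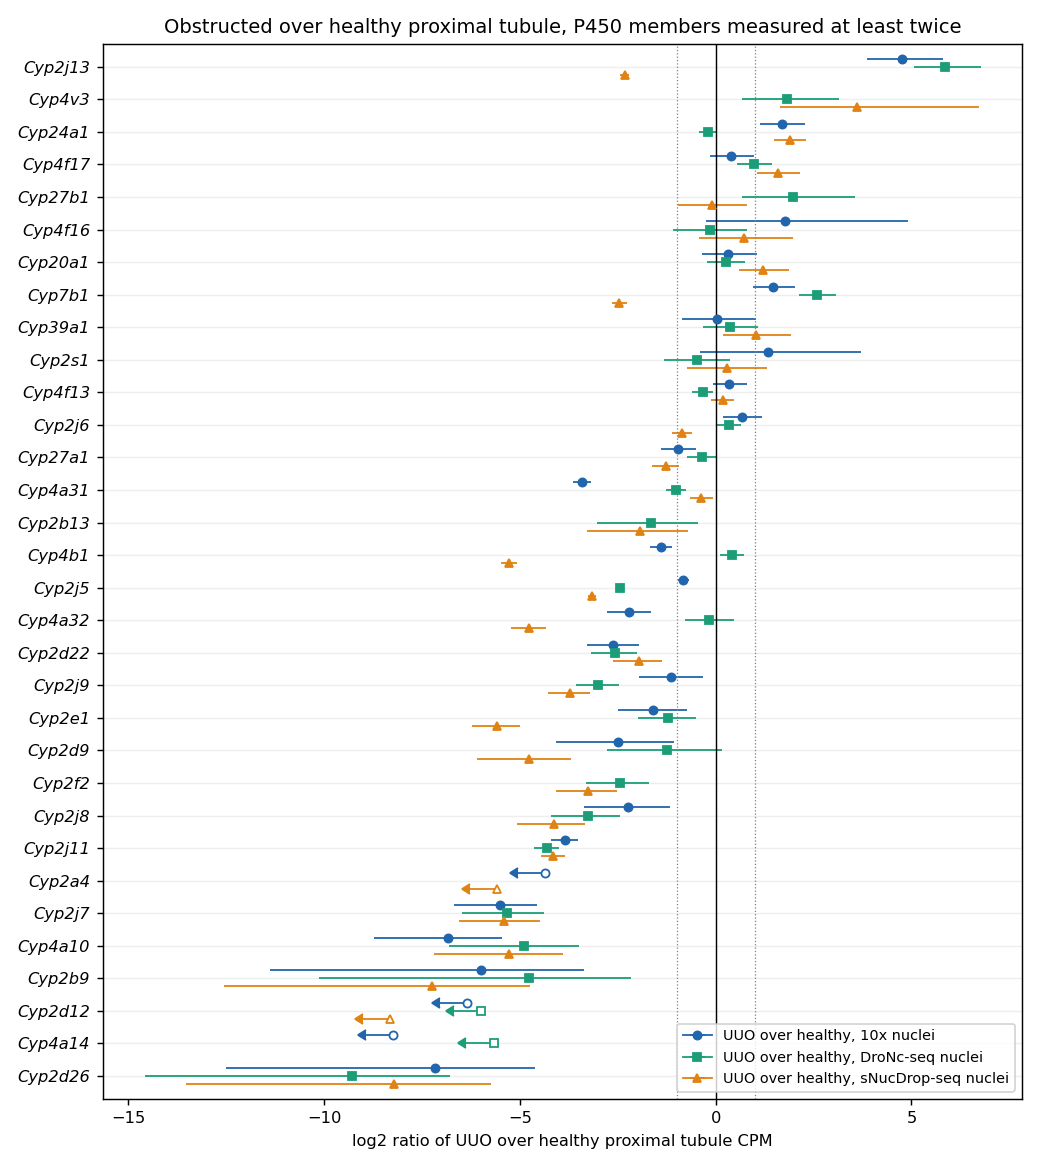
Log2 ratio of the UUO PT level over each healthy nucleus PT level (horizontal axis) for the 32 members measured against at least 2 libraries, with 95% counting intervals; the arrow of a member with 0 UUO counts points to lower values. Points of Cyp2d12, Cyp2d26, Cyp2j7 and Cyp4a10 lie below -4 for each library drawn, and those of Cyp2j13 and Cyp7b1 lie on both sides of 0.

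Within the UUO kidney the authors' PT labels differed. The dedifferentiated label, with 117 barcodes, was set against S1 to S3 together: 7 of 21 measured members were lower (9.69% of all genes), 5 with an interval clear of 0, and 2 were higher (5.01%), neither with an interval clear of 0; median of ratios scaling gave 6 and 4. Cyp4b1 had 1 count against 216 (-3.70, -9.01 to -1.21) and Cyp4a31 0 against 201. With a floor of 3 counts Cyp4a31 was 4.04-fold lower, with an upper log2 limit of -1.70. Cyp24a1 was at 15.4 CPM on 3 counts, against 77.5 CPM (-2.33, -4.62 to -0.77), Cyp2j5 at 154 CPM, against 319 CPM (-1.05, -1.62 to -0.53), and Cyp7b1 had 6 counts against 279 (-1.49, -2.95 to -0.35). Cyp2j13 did not follow them: it was at 252 CPM in dedifferentiated PT, against 234 CPM in S1 to S3 (0.11), and at 102 CPM in proliferating PT. Cyp24a1 was at 152 CPM in proliferating PT.

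Genes that work with the P450 enzymes were read from lists of partners and regulators. Of 8 electron donors and partners, 7, 8 and 8 were measured in UUO PT over healthy 10x, DroNc-seq and sNucDrop-seq. Of these, 1, 3 and 3 fell and 2, 0 and 1 rose. Of all genes 20.8%, 29.8% and 33.7% fell and 14.6%, 19.8% and 19.9% rose, and the donor counts are too few to be read against these shares. Por, the donor of microsomal P450 enzymes, was at 94.1 CPM in UUO PT, against 411, 204 and 266 CPM, a fall of 2.13, 1.11 and 1.50 on the log2 scale. Of 5 heme and epoxide genes, 3, 4 and 4 were measured. In each comparison 2 fell and 0 rose, again too few to be read against the shares of all genes. Alas1, the first step of heme synthesis, gave -2.85, -1.28 and -2.95. Ephx2, the soluble epoxide hydrolase that turns over P450 epoxides, gave -1.41, -1.26 and -2.77.

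Of 10 regulators 9 were measured in each comparison; 4, 2 and 2 fell and 0, 2 and 2 rose. These counts are too few to be read against the shares of all genes that fell or rose (14.6%, 19.8% and 19.9% rose). Ppara, the fatty acid receptor, fell by 3.20, 3.70 and 3.95 against healthy 10x, DroNc-seq and sNucDrop-seq. Nr1h4, the bile acid receptor, fell by 1.06, 1.70 and 2.39. Hnf4a, a tubule transcription factor, fell by 1.24 against healthy 10x, and its -0.67 and -0.95 did not reach 2-fold. Ahr, the dioxin receptor, gave 0.53, 1.35 and 1.89, and Rxra, the partner of many nuclear receptors, -0.29, 1.71 and 1.40. Of the P450 genes outside the symbol rule, Cyp51, the lanosterol demethylase of cholesterol synthesis, fell by 4.99, 5.37 and 4.97, and Cyp4a12a, an omega-hydroxylase gene known for male-biased expression, gave -1.18, 1.81 and -1.10.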

How the data were processed

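RNA molecules tagged with unique molecular identifiers (UMIs) were counted in 5 libraries of adult mouse kidney. The authors deposited raw UMI counts for each gene and barcode in a healthy table and a UUO table, with a cell type label for each barcode; the counts come from zUMIs, per the deposited readme, and STAR 2.5.3a and mm10 are named per the submitters' processing notes. The sources used here do not give the annotation, the gene and barcode filters, or whether intronic reads were counted, and no doublet caller was run. Each library had 2947137 to 7411036 counts, and 0 columns of no mapped sample were present.

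Within each library, all barcodes of a label class were summed and scaled to the class total (CPM), with exact Poisson 95% intervals. Ratios of 2 sums were log2 ratios of CPM with exact conditional (Clopper-Pearson) intervals; the intervals cover counting error only and take barcodes as 1 sample. Genes entered a ratio if at least 20 counts stood behind it and the healthy library in it had a count of them; a symbol with a row in the UUO table but no UUO count was kept as 0, and leaving such genes out too was an added alternative. The symbol sets of the libraries differ, with 25 pairs of names for the same gene, a class needed 20 barcodes, and a 2-fold difference was the call. A sum of 0 was set at a floor of 3 counts. The text names the 12 members with the highest mean PT level over healthy nuclei, members called in 1 direction against each healthy nucleus library, the top 3 of each role, and members highest outside PT in at least 2 healthy libraries, 40 genes in all. The members, gene lists and comparisons were chosen with earlier results of these data known. Roles were assigned from textbook knowledge. Some regulators are not reported here. Places came from GENCODE M21 and promoters from RefSeq GRCm38.p6. Scaling alternatives were TMM (edgeR 4.0.16, R 4.3.3) and median of ratios. The scripts, tested on simulated counts, used Python 3.11.15 with pandas 2.3.3, matplotlib 3.10.9, scipy 1.17.1 and numpy 2.4.6.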

Additional observations from a re-analysis of the deposited data

How the results depend on the processing

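No paired analysis was possible because each condition and platform has 1 library, and for the same reason no replicate could be left out. Of the alternatives to the counts, medians and places, 300 stayed within 1.5 times the reported count or within the typical counting interval, and 50 moved; of the alternatives to named gene ratios over healthy PT, 1225 stayed inside the counting interval, 82 moved and 1 reversed. Low counts and the choice of segment moved counts of members, and 1 library a group limits every comparison. Counts of members at alternative settings, here and above, have no share of all genes at that setting unless it stands beside them. They show how far a count moved and are not read as results about the members. TMM and median of ratios scaling shifted UUO ratios by 0.09 and 0.10 over healthy 10x, 0.20 and 0.25 over DroNc-seq, and 0.30 and 0.34 over sNucDrop-seq.

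With a minimum of 100 counts, UUO PT had 7 lower and 3 higher members against healthy 10x, 12 and 2 against DroNc-seq (median -2.46), and 3 higher against sNucDrop-seq (median -3.73). With a minimum of 1 it had 35 lower and 8 higher against sNucDrop-seq (median -2.18). With S3 labels alone it had 7 lower and 3 higher against healthy 10x (median -0.32), with Cyp4b1 reversed to 0.40, 11 lower against DroNc-seq (median -2.23) and 3 higher against sNucDrop-seq. With S1 and S2 labels alone, 1 was higher against healthy 10x, and with genes at 0 in the healthy library kept, 8 were. The cause of the segment effect was not tested.

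For S3 over S1-S2, a minimum of 1 gave 8 lower in sNucDrop-seq, 5 higher in healthy 10x, 11 lower and 7 higher in DroNc-seq, 3 lower in Drop-seq and 4 higher in UUO. A minimum of 100 gave 1 lower in sNucDrop-seq, 3 lower and 0 higher in healthy 10x, 0 higher in DroNc-seq and 0 lower in UUO. The mean over barcodes gave 5 higher in healthy 10x, 3 lower in DroNc-seq and 3 lower in Drop-seq. Without barcodes above 3 times the class median, DroNc-seq had 2 lower and 1 higher. Drop-seq had 3 lower with TMM, 3 with median of ratios, 5 with totals without mitochondrial and ribosomal protein genes and 2 with barcodes of at least 1000 UMIs. In dedifferentiated PT, 4 were higher with median of ratios, 5 with a minimum of 1 and 0 with a minimum of 100.

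Drop-seq cells over sNucDrop-seq nuclei had 11 lower with TMM and 11 with median of ratios, and 5 higher with a minimum of 100. That minimum gave 3 lower for sNucDrop-seq over healthy 10x and 5 lower for DroNc-seq over healthy 10x, and 7 members highest in PT in healthy 10x. A minimum of 1 gave 19 highest in PT in Drop-seq and 16 in UUO. With S1 and S2 labels alone, 3 members were lower in both sNucDrop-seq and Drop-seq than in both healthy 10x and DroNc-seq. The comparisons between healthy platforms, the library-pair division, S3 in Drop-seq and UUO, the reading of Cyp2c44 as Cyp2c23 and the treatments of genes at 0 were added after seeing the data.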
